A study of Homo sapiens with 46 samples.

Results

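Silencing of ND4L was compared with its control across all genes in HEK293T cells, a HEK293-Flp-In T-Rex line derived from human embryonic kidney and labelled wild type. The 8 libraries were chosen by their labels, 4 of ND4L silencing and 4 of the control, out of 46 poly(A)-enriched RNA-seq libraries in the series. ND4L silencing cells were incubated for 48 hours with a chimera at 2 µM. The chimera was a morpholino, an uncharged antisense oligomer that blocks translation or splicing without cleaving RNA, clicked to pCox4, the targeting presequence of yeast Cox4, which carries its cargo into the mitochondrial matrix. Control cells were given pCox4 in click reaction buffer for the same time, hence the presequence but no morpholino, so that a response to any morpholino and a response to this one cannot be told apart against the control alone. Endo-Porter, a peptide used for delivery, was in the medium of both groups. Replicates 1 and 2 of each group belonged to batch 1 and replicates 3 and 4 to batch 2, which differed in day and in reagents. The other 38 libraries came from 10 other chimeras, each against another mitochondrially encoded mRNA.

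ND4L is a small hydrophobic core subunit in the membrane arm of complex I, the NADH dehydrogenase of the respiratory chain, which passes electrons from NADH to ubiquinone and pumps protons. It is encoded in mitochondrial DNA (mtDNA), whose heavy strand is transcribed into a long precursor that is cut into mRNAs, rRNAs and tRNAs. ND4L shares a bicistronic mRNA with ND4, another core subunit of the same arm, so that a chimera at the ND4L start lies on the transcript of both. Most complex I subunits are encoded in the nucleus, translated in the cytosol and imported.

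The chimera was directed against positions 6 to 30 of the ND4L reading frame. These 25 bases, of which 5 are G or C, are given in capitals in the first line, from the gene start on the plus strand of mtDNA (GRCh38, GENCODE 29 transcript sequence), because they are the site on which the treatment acts. The second line shows where the reading frame of MT-ND4L ends inside that of MT-ND4, with the 7 bases that both frames share in capitals.
MT-ND4L start, chrMT:10470-10499: atgccCCTCATTTACATAAATATTATACTA
MT-ND4L and MT-ND4 junction, chrMT:10748-10777: aaacctactccaATGCTAAaactaatcgtc
The MT-ND4L gene (ENSG00000212907) runs from 10470 to 10766 and MT-ND4 (ENSG00000198886) from 10760 to 12137. Of all 20272 genes tested, MT-ND4L alone held the whole site in an annotated transcript. Runs of at least 9 site bases occurred in 28.3% of genes, in 3 of the 6 genes called lower after ND4L silencing and in 1 of the 24 called higher. The longest run was of 10 bases in the former and of 9 in the latter.

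The targeted transcript was examined first. The libraries of ND4L silencing held 389, 418, 574 and 631 CPM (counts scaled to a common library size by edgeR's TMM method) of MT-ND4L in replicates 1 to 4. The control libraries held 585, 481, 705 and 662 CPM. Each ND4L silencing library lay below the mean of the 2 controls of its batch, at 73.0%, 78.4%, 83.9% and 92.3% of it, while the CPM ranges of the groups overlapped. In bulk libraries, less of a transcript per cell and fewer cells that carry it cannot be told apart. The log2 fold change was -0.29 (SE 0.11, 95% interval -0.51 to -0.06 before correction for multiple tests). It did not pass the threshold of 0.05 over all genes (adjusted p = 0.223, edgeR quasi-likelihood test with Benjamini-Hochberg correction). It was -0.40 within batch 1 and -0.18 within batch 2.

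MT-ND4, the other reading frame of the bicistronic mRNA, was at 3648, 4015, 4858 and 4776 CPM after ND4L silencing and at 4428, 4384, 5337 and 5895 CPM in the control. All 4 libraries lay below their batch control, at 82.8%, 91.1%, 86.5% and 85.0%. The log2 fold change of -0.21 (SE 0.053) did not pass the threshold (adjusted p = 0.0607, edgeR), and it passed with a term for replicate number in place of batch (adjusted p = 0.0437). With a GC trend removed from each library the adjusted p was 0.187 (edgeR). Of the 8 fits that left out 1 library 0 called MT-ND4 (adjusted p of 0.0557 to 0.322). The within-batch values, -0.20 and -0.22, were nearly equal. The log2 ratio of MT-ND4 to MT-ND4L counts, which needs no library size, was 3.12 ± 0.157 after ND4L silencing and 3.05 ± 0.146 in the control (SD, n = 4 each). The difference of 0.08 was within the spread between replicates (exact permutation test, two-sided, p = 0.429, where 0.0286 is the smallest p that 4 against 4 allows). Within batches it was 0.19 and -0.04.

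**Figure D1:**
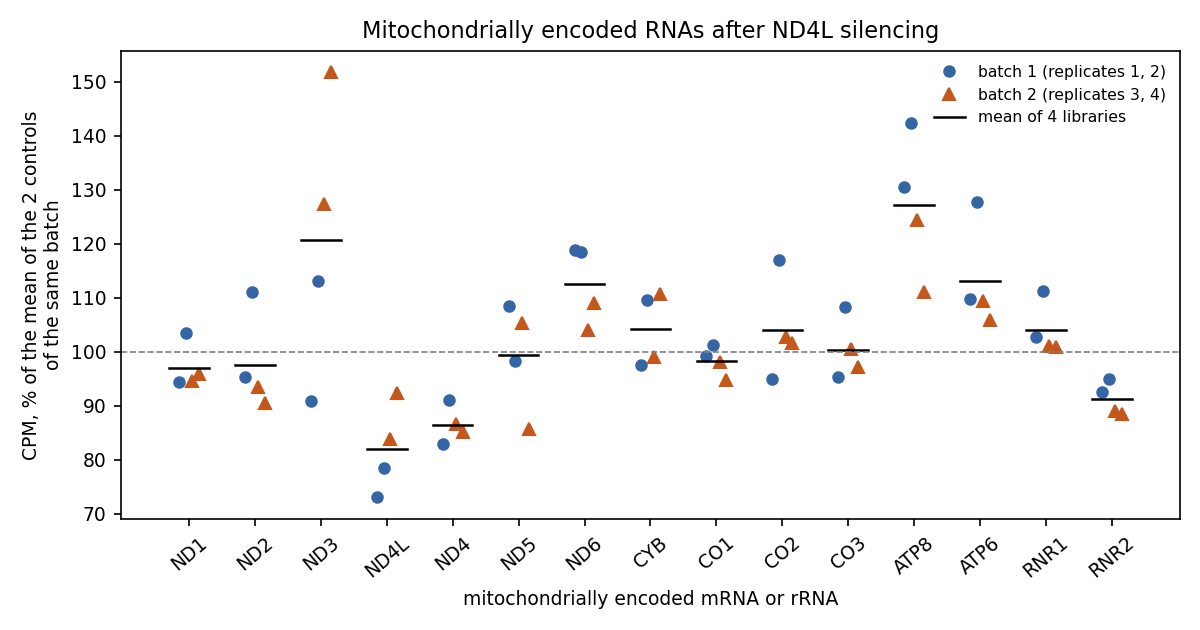
Level of each mitochondrially encoded mRNA and rRNA in the 4 ND4L silencing libraries, as a percentage of the mean CPM of the 2 control libraries of the same batch (y axis). Circles are batch 1, triangles batch 2, bars the mean of 4, and the dashed line the control; all points of ND4L, ND4 and RNR2 lie below 100%, and all points of ND6, ATP8, ATP6 and RNR1 above it.

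None of the 13 mitochondrially encoded mRNAs passed the test; over all genes 30 of 20272 did (0.148%). The 13 had a median log2 fold change of 0.0040 with 7 above 0, next to a median of 0.0031 over all genes. MT-ND4L and MT-ND4 were the only ones of the 13 below their batch control in all 4 libraries, as were 12.6% of all genes. MT-ATP6, MT-ATP8 and MT-ND6 were above it in all 4, as were 14.1% of all genes. MT-ATP6, a subunit of the ATP synthase, stood at 110%, 128%, 109% and 106% of the batch control (log2 fold change 0.18, SE 0.055, adjusted p = 0.118, edgeR). MT-ATP8, the reading frame before it on the same mRNA, stood at 131%, 142%, 124% and 111% (0.35, SE 0.17, adjusted p = 0.355). MT-ND6, a complex I subunit and the mRNA of the light strand, was at 633, 631, 580 and 608 CPM against 518, 547, 564 and 552 CPM in the control. Its groups did not overlap, as was so for 2.71% of all genes in this direction, and its adjusted p was 0.254 (log2 fold change 0.17, SE 0.070). Whether counting used strand is not given in the sources used here, so heavy-strand reads over MT-ND6 cannot be told apart from its own.

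The other mRNAs had smaller differences apart from MT-ND3. MT-ND1, MT-ND2, MT-ND5, MT-CYB, MT-CO1, MT-CO2 and MT-CO3 had log2 fold changes between -0.04 and 0.06. MT-CO3 changed sign with RLE scaling (-0.000384), and others of the 7 with a batch, a trend or a library left out. MT-ND3 differed most between libraries, at 90.9%, 113%, 127% and 152% of its batch control (0.27, SE 0.13, adjusted p = 0.312, edgeR). The large rRNA, MT-RNR2, was at 3242, 3329, 3483 and 3456 CPM against 3503, 3503, 4096 and 3726 CPM in the control, lower in every library (-0.13, SE 0.063, adjusted p = 0.321). The small rRNA, MT-RNR1, had a log2 fold change of 0.05. Of the 22 mitochondrial tRNAs 19 were abundant enough to test, with 7 above 0, a median of -0.08 and none called. The smallest unadjusted p among them were those of MT-TV, at 0.427 CPM against 1.10 CPM in the control (log2 fold change -1.34, adjusted p = 0.119), and MT-TR, at 4.54 CPM against 7.08 CPM (-0.66, adjusted p = 0.212). For MT-TR the adjusted p was 0.0466 with the term for replicate number and 0.637 with a GC trend removed (edgeR). Its ND4L replicates 1 to 4 held 5.60, 4.84, 5.32 and 2.38 CPM. The difference of MT-TR was -0.31 within batch 1 and -1.03 within batch 2. The 19 had a median of 1.16 CPM in the control, in libraries enriched for poly(A). MT-TR runs from 10405 to 10469, and MT-ND4L starts at 10470. Reads of a tRNA, of its precursor and of a neighbouring transcript cannot be told apart here. Genes of mtDNA took 4.48% ± 0.315 of the counts after ND4L silencing and 4.56% ± 0.414 in the control (SD over both batches, n = 4 each). An exact permutation test that took no account of batch gave p = 0.686 (two-sided). The difference was 0.0155 percentage points within batch 1, where the SD was 0.218 after ND4L silencing and 0.125 in the control. Within batch 2 it was -0.19, with SD of 0.051 and 0.060 (n = 2 each).

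Against the control 24 genes were called higher (0.118% of genes tested) and 6 lower (0.0296%). At an unadjusted p under 0.05 there were 2859 (14.1%). With a term for replicate number in place of batch the count was 106, of which 30 were the same genes, and with no batch term it was 2. The count depended on single libraries. It was 16, 92, 6 and 8 without ND4L replicate 1, 2, 3 or 4, and 75, 25, 5 and 5 without control replicate 1, 2, 3 or 4. All 30 genes kept their direction in each of these 8 fits, which reuse libraries that chose these genes. TXNIP, ARRDC4, CD63 and SEMA6B were called in all 8, and the other 26 genes in 1 to 7, so that each of the 26 was lost in at least 1 fit. The strongest of the 6 lower genes were TXNIP and ARRDC4. TXNIP encodes an arrestin-family protein that limits glucose uptake and binds thioredoxin, ARRDC4 its relative with a like effect on glucose uptake, and both are transcribed by the glucose-sensing factor MondoA. TXNIP (ENSG00000265972) was at 19.6, 23.2, 25.8 and 26.7 CPM after ND4L silencing and at 35.1, 33.1, 46.2 and 41.9 CPM in the control. The groups did not overlap, as was so for 2.2% of all genes in this direction, and the log2 fold change was -0.71 (SE 0.078, adjusted p = 5.14e-08, edgeR) and the fold 0.611. ARRDC4 (ENSG00000140450) was at 38.2, 45.0, 44.2 and 47.7 CPM against 59.2, 62.8, 65.0 and 68.7 CPM, again without overlap (-0.55, SE 0.064, adjusted p = 1.73e-07, edgeR). Both were lower by a like amount in either batch, TXNIP by -0.68 and -0.74 and ARRDC4 by -0.55 and -0.54 on the log2 scale.

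The other 4 lower genes were ARL6IP1, NXT2, FAM72A and AK9. ARL6IP1, a shaping protein of the endoplasmic reticulum, was at 169, 190, 138 and 149 CPM against 201, 206, 188 and 184 CPM (-0.27, SE 0.056, adjusted p = 0.0188, edgeR). NXT2, a cofactor of mRNA export, averaged 13.8 ± 1.60 CPM against 18.6 ± 0.784 CPM (SD, n = 4 each, -0.43, SE 0.094, adjusted p = 0.0283). AK9, an adenylate kinase, averaged 4.62 CPM against 6.65 CPM (-0.52, SE 0.12, adjusted p = 0.0445). FAM72A averaged 6.45 CPM against 9.76 CPM (-0.60, SE 0.12, adjusted p = 0.0188), and since near-identical copies of this gene lie on the same chromosome its counts may be split among them. All 6 lower genes were below their batch control in 4 of 4 libraries, as were 12.6% of all genes. The groups of ARL6IP1 alone overlapped, while over all genes 2.2% did not overlap in this direction. The 6 were called on these same values.

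**Figure D2:**
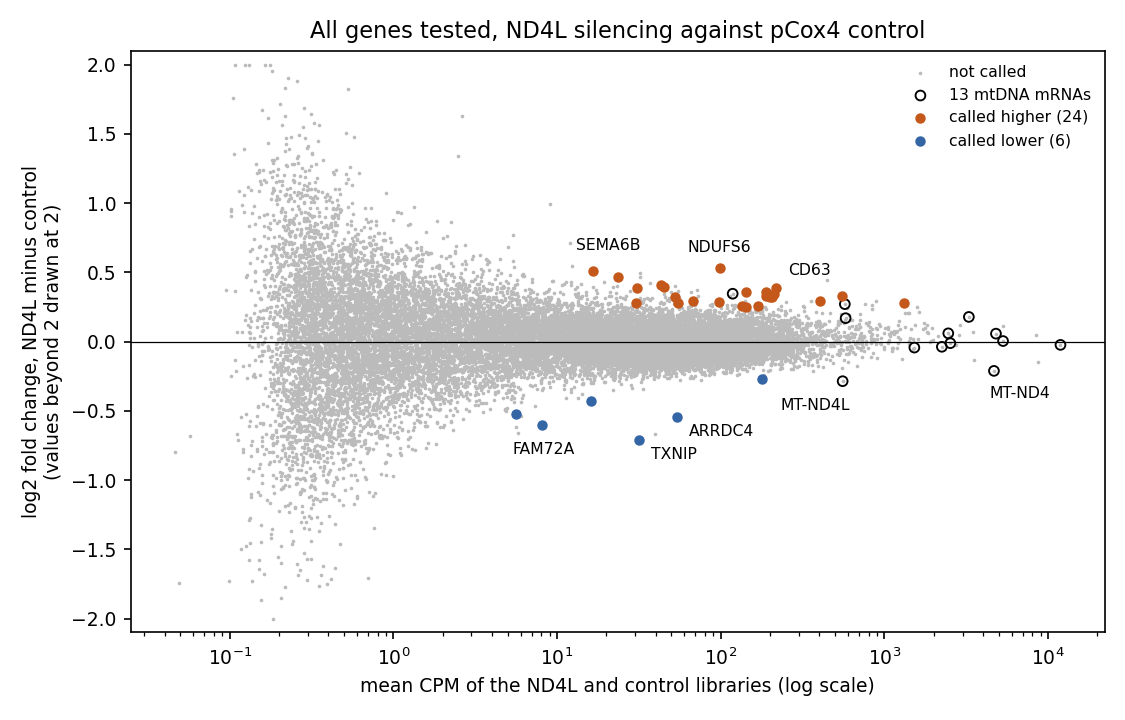
Log2 fold change of ND4L silencing minus control (y axis, values beyond 2 drawn at 2) against the mean CPM of the 8 libraries (x axis, log scale) for all genes tested. Called genes are orange (24 higher) or blue (6 lower) and the 13 mitochondrially encoded mRNAs are open circles; called genes lie between -0.71 and 0.53, and MT-ND4 and MT-ND4L sit below 0 without being called.

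Of the 24 higher genes CD63 and SEMA6B were those called whichever library was left out. CD63, a tetraspanin of late endosomes and lysosomes, was at 240, 253, 245 and 244 CPM after ND4L silencing and at 198, 214, 174 and 166 CPM in the control (0.39, SE 0.064, adjusted p = 0.000926, edgeR). SEMA6B, a transmembrane semaphorin, was at 20.5, 19.8, 18.6 and 18.8 CPM against 13.5, 14.8, 12.8 and 13.4 CPM (0.51, SE 0.091, adjusted p = 0.00363). In both genes every ND4L silencing library was above every control library, as in 2.71% of all genes. The means of the other 10 treatments were above the batch control in both genes too. CD63 was at 132% of it after ND4L silencing and at 116% (ND2) to 131% (COX2) in the others. SEMA6B was at 143% after ND4L silencing and at 110% (ND3) to 147% (CYTB) in the others. HAGH, the glyoxalase that completes the detoxification of methylglyoxal, was called in 7 of the 8 fits, at 50.5, 52.3, 47.6 and 47.0 CPM against 43.5, 38.2, 35.7 and 31.4 CPM (0.41, SE 0.073, adjusted p = 0.00383). EML2, a microtubule-binding protein, was called in 5, at 30.8, 31.3, 37.6 and 40.5 CPM against 26.7, 25.2, 27.7 and 26.8 CPM (0.39, SE 0.074, adjusted p = 0.0085).

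**Figure D3:**
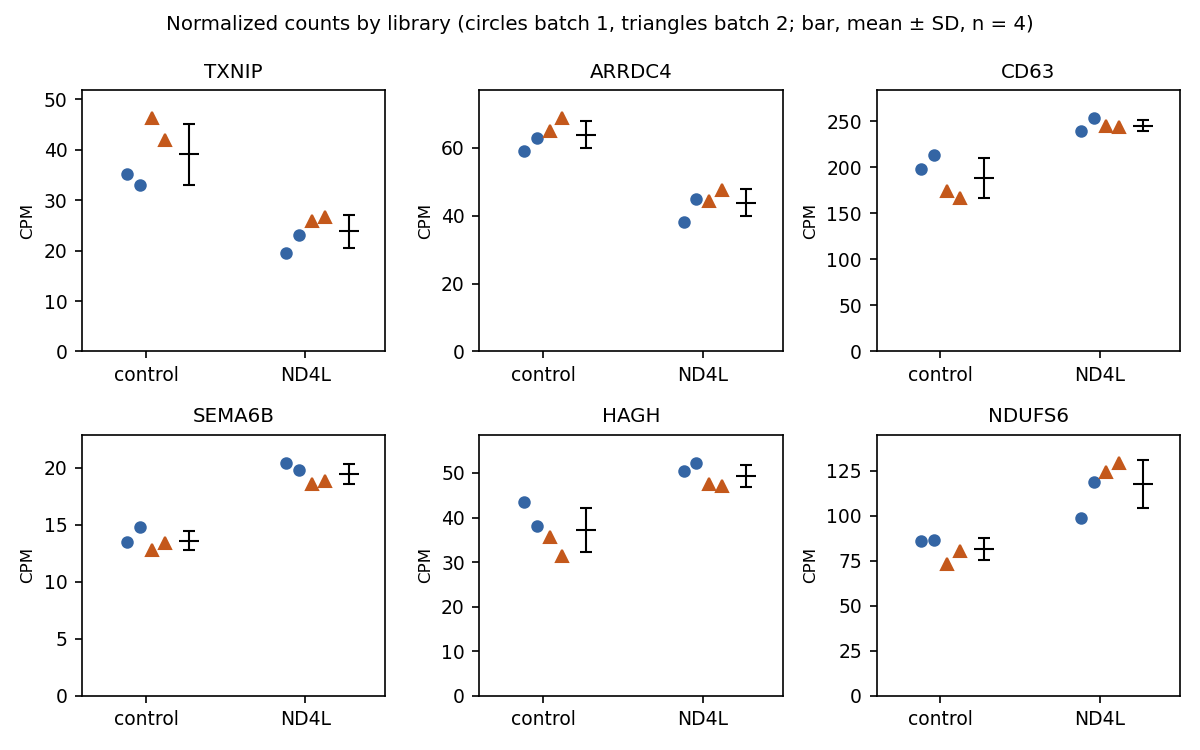
CPM (y axis, from 0) of TXNIP, ARRDC4, CD63, SEMA6B, HAGH and NDUFS6 in the 4 control and the 4 ND4L silencing libraries. Circles are batch 1, triangles batch 2, and bars the mean ± SD (n = 4). In each of the 6 genes the groups do not overlap, with TXNIP and ARRDC4 lower and the other 4 higher after ND4L silencing. Over all genes 2.2% do not overlap in the lower and 2.71% in the higher direction.

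The remaining higher genes other than NDUFS6 changed by 0.25 to 0.47 on the log2 scale. SNRNP70, a protein of the U1 snRNP, changed by 0.29 and the splicing factor SRSF9 by 0.34. Other genes belong to the ribosome or the nucleolus. RPS3, a protein of the small ribosomal subunit, was at 1441, 1479, 1447 and 1443 CPM against 1282, 1248, 1135 and 1132 CPM (0.28, SE 0.062, adjusted p = 0.0335). NOP53 changed by 0.32, NHP2, a core protein of H/ACA snoRNPs, by 0.28, and the nucleolar chaperone NPM3 by 0.29. The elongation factor EEF1A2, which is close in sequence to EEF1A1, changed by 0.32 and EDF1, which binds stalled ribosomes, by 0.36.

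Metabolic and protein-quality genes made up part of the rest. ENO2, the neuronal enolase of glycolysis, was at 62.8, 64.2, 57.8 and 54.6 CPM against 48.5, 54.7, 48.0 and 46.1 CPM, with one library just inside the control range (0.28, SE 0.059, adjusted p = 0.0222, edgeR). PSMA7, a subunit of the proteasome core, changed by 0.26, and SIL1, a cofactor of the endoplasmic reticulum chaperone BiP, by 0.28. CYBA, the p22 subunit of NADPH oxidases, changed by 0.36, OCIAD2 by 0.32, PDAP1 by 0.33, REEP2 by 0.25, MAP7D1 by 0.25, the transcriptional repressor subunit DRAP1 by 0.40 and TNNT1, a troponin of slow muscle, by 0.47. All 24 were above their batch control in 4 of 4 libraries, as were 14.1% of all genes. In ENO2 and EEF1A2 the groups overlapped, and in the other 22 they did not, as in 2.71% of all genes. The 24 were called on these same values.

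NDUFS6 was the only nuclear-encoded complex I subunit among the called genes and had the largest change among those higher. It is a zinc-binding accessory subunit of the N module, the tip of the peripheral arm where NADH is oxidised. It was at 98.7, 118, 124 and 129 CPM after ND4L silencing and at 85.7, 86.6, 73.1 and 80.3 CPM in the control (0.53, SE 0.11, adjusted p = 0.0188, edgeR). The groups did not overlap, as in 2.71% of all genes in this direction. The difference was 0.33 within batch 1 and 0.73 within batch 2, and 4 of the 8 fits that left out a library called it.

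The other nuclear genes of complex I were examined by module. Of the 10 N module subunits 8 had a log2 fold change above 0, with a median of 0.16. NDUFV1, which binds NADH and FMN, was at 138 CPM against 119 CPM (0.20, SE 0.052, adjusted p = 0.0687, edgeR). Its groups did not overlap, as in 2.71% of all genes in this direction. The difference was 0.08 within batch 1 and 0.32 within batch 2, and with a GC trend removed the adjusted p was 0.269 (edgeR). Of the 5 subunits of the Q module, where ubiquinone is reduced, 4 were above 0, with a median of 0.09. NDUFS3 had a value of 0.16 (adjusted p = 0.203). Of the 22 accessory subunits of the membrane arm, in which ND4L resides, 19 were above 0, with a median of 0.12, and NDUFB2 (0.26, adjusted p = 0.136) and NDUFA3 (0.32, adjusted p = 0.145) had the smallest p. Together 31 of 37 were above 0 with a median of 0.12, next to 10289 of 20272 and 0.0031 over all genes, and 1 of 37 was called. At an unadjusted p under 0.05, 16 of 37 were higher (7.11% over all genes) and 0 lower (6.99%). The 37 had a median transcript length of 1333 bases, against 3949 over genes with at least 10 CPM in the control. Over the 2087 genes with the shortest transcripts the median log2 fold change was 0.05. With a gene-length trend removed from each library the median of the 37 was 0.09, with 29 above 0.

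The libraries did not share this shift alike. The median over the 37 subunits relative to the batch control was -0.05 in ND4L replicate 1, 0.14 in replicate 2, 0.24 in replicate 3 and 0.18 in replicate 4. It was 0.03 within batch 1 and 0.19 within batch 2. Against the mean of the other 10 treatments the median was 0.04, with 22 of 37 above 0 and none called. The 20 assembly factors of complex I had a median of 0.04 with 14 above 0 and none called. The 2 with the smallest p were NDUFAF8 (0.27, adjusted p = 0.244, edgeR) and TMEM126B, a member of the assembly complex for the membrane arm (-0.18, adjusted p = 0.268). TMEM186, an assembly factor that the study followed up, was at 8.71, 10.6, 10.5 and 9.42 CPM against 8.65, 8.81, 8.56 and 9.75 CPM (0.13, SE 0.10, adjusted p = 0.610). Also followed up were SMIM26, with a value of 0.0014 and an adjusted p of 0.997, and ZNF703, with -0.03 and 0.876.

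**Figure D4:**
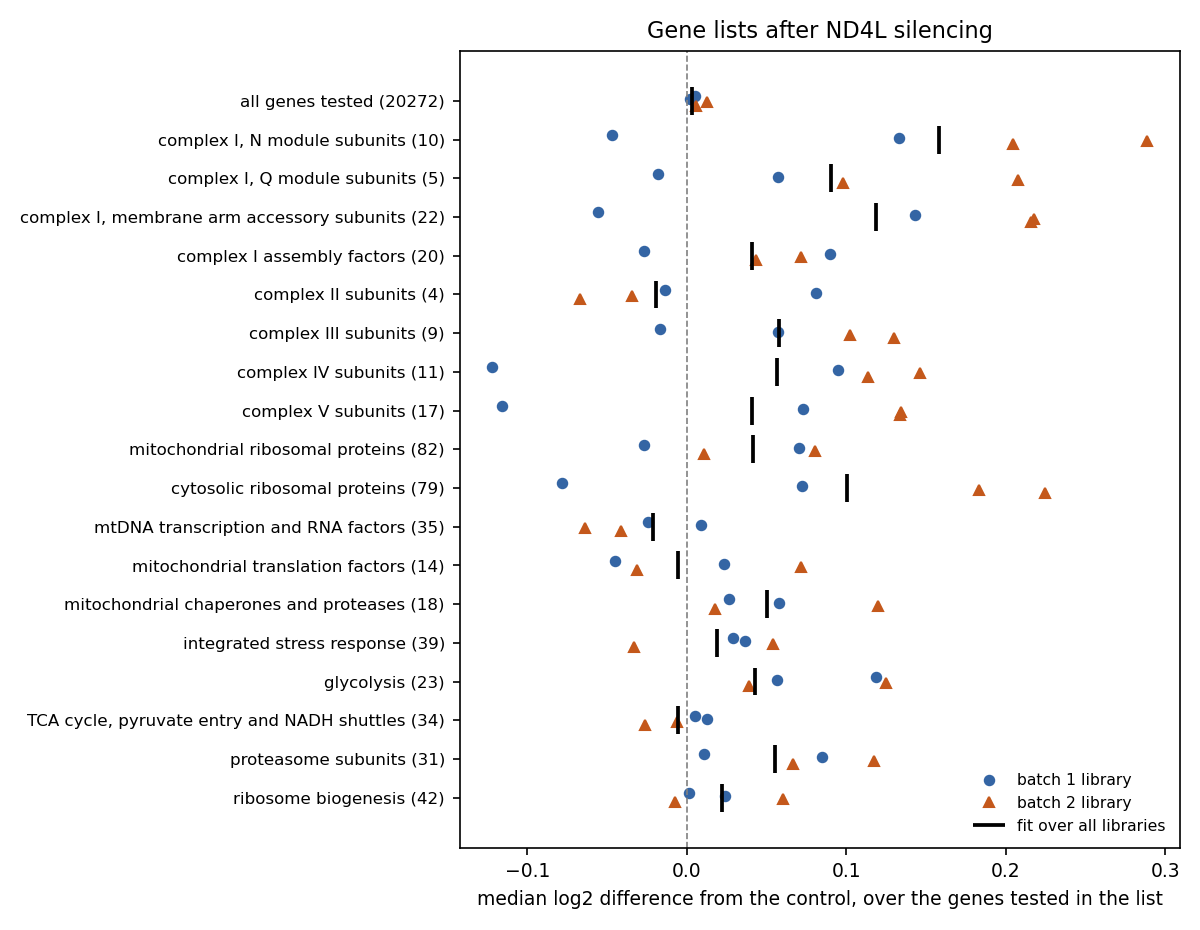
Median log2 difference from the control (x axis) over the tested genes of each list (y axis, number of genes in parentheses). Circles and triangles are single ND4L silencing libraries of batch 1 and batch 2 against the controls of their batch, and black bars the fit over all libraries. The lists of complexes I, III, IV and V and of cytosolic and mitochondrial ribosomal proteins lie below 0 in replicate 1. They lie above 0 in the other 3 libraries.

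The nuclear subunits of the other respiratory complexes had smaller medians. It was -0.02 for complex II (1 of 4 above 0), 0.06 for complex III (6 of 9), 0.06 for complex IV (10 of 11) and 0.04 for the ATP synthase (12 of 17). None of these genes was called. The genes with the smallest p were SDHD (-0.24) and SDHA (0.13) of complex II, CYC1 (0.16) and UQCRFS1 (-0.10) of complex III, COX4I1 (0.21) and COX8A (0.15) of complex IV, and ATP5ME (0.50) and ATP5MC1 (0.15) of the ATP synthase. Their adjusted p lay between 0.0783 and 0.364 (edgeR).

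Proteins of the cytosolic ribosome had 65 of 79 genes above 0, a median of 0.10 and RPS3 as the only member called. At an unadjusted p under 0.05, 22 of 79 were higher (7.11% over all genes) and 0 lower (6.99%). Of the 10436 genes with a mean of at least 10 CPM, 1055 were higher and 1165 lower at that threshold. RPS16 came after RPS3 among the ribosomal genes (0.25, adjusted p = 0.0961, edgeR). The median by library was -0.08, 0.07, 0.18 and 0.22 in replicates 1 to 4, so that replicate 1 ran against the others here too. Mitochondrial ribosomal proteins had 56 of 82 above 0, a median of 0.04 and none called (46 of 82 and 0.02 with the gene-length trend removed). MRPL24 (0.23, adjusted p = 0.0841) and MRPS26 (0.22, adjusted p = 0.0892) led them. Factors of mtDNA transcription and RNA processing had 14 of 35 above 0 and a median of -0.02. Among them HSD17B10, a subunit of mitochondrial RNase P, had a value of 0.17 (adjusted p = 0.145). TWNK, the helicase of mtDNA replication, which the list also holds, had one of 0.17 (adjusted p = 0.158). Mitochondrial translation factors had 6 of 14 above 0 and a median of -0.0058, with TUFM at 0.12 (adjusted p = 0.254) and MTRF1 at -0.20 (adjusted p = 0.390).

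Genes of the mitochondrial chaperones and proteases had 14 of 18 above 0, a median of 0.05 and none called. HTRA2, a protease of the intermembrane space, was just outside the threshold (0.32, SE 0.075, adjusted p = 0.0514, edgeR), and LONP1, the main matrix protease, followed (0.22, adjusted p = 0.0607). With the term for replicate number both were called, at adjusted p of 0.0373 for HTRA2 and 0.0437 for LONP1. With a GC trend removed neither was, at adjusted p of 0.0881 and 0.252 (edgeR). Each was called in 2 of the 8 fits that left out a library, with adjusted p of up to 0.277 and 0.347. The integrated stress response, through which ATF4 raises amino acid synthesis genes when mitochondria fail, had 23 of 39 above 0, a median of 0.02 and none called. AARS (0.18, adjusted p = 0.0841) and PCK2 (0.25, adjusted p = 0.151) had its smallest p. Against the mean of the other 10 treatments 1 member of this list was called, PSAT1, which was lower by -0.18. NRF2 targets and antioxidant enzymes had a median of 0.03, with PRDX5 at 0.37 (adjusted p = 0.0559) and TXNRD2 at 0.22 (adjusted p = 0.0959). For PRDX5 the adjusted p was 0.0373 with the term for replicate number and 0.162 with a GC trend removed (edgeR). It was called in 2 of the 8 fits that left out a library.

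Glycolysis genes had 20 of 23 above 0 and a median of 0.04, with ENO2 called. With a GC trend removed from each library 14 of 23 were above 0 and none was called (ENO2 adjusted p = 0.101). The median ran from 0.02 without ND4L replicate 1 to 0.08 without control replicate 3. PFKP, a phosphofructokinase at the committed step, had a value of 0.18 (adjusted p = 0.0575, edgeR, and 0.0437 with the term for replicate number). With the GC trend removed its adjusted p was 0.216, and 2 of the 8 fits that left out a library called it. The median of the glycolysis genes was above 0 in all 4 libraries, at 0.12, 0.06, 0.12 and 0.04. Genes of the TCA cycle, pyruvate entry and NADH shuttles had a median of -0.0052, with OGDH at 0.15 and GOT1 at 0.13. Proteasome subunits had 21 of 31 above 0 and a median of 0.06, with PSMA7 called (adjusted p = 0.0740 with the GC trend removed) and PSMD4 next (0.17, adjusted p = 0.0967). Ribosome biogenesis genes had 24 of 42 above 0 and a median of 0.02, with NHP2 called (adjusted p = 0.163 with the GC trend removed) and the nucleolar methyltransferase FBL next (0.20, adjusted p = 0.105).

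The 5 remaining lists had no called gene. The median was 0.01 for p53 targets (SESN1 -0.17, FAS -0.17), -0.03 for cholesterol synthesis (STARD4 -0.26, SC5D -0.20) and 0.02 for interferon response genes (IFIT5 -0.20, MAVS 0.17). It was -0.04 for immediate early genes (FOS -0.46, IER2 0.19). For histone genes, at a median of 2.32 CPM in the control of these poly(A)-enriched libraries, it was -0.10 (HIST1H2AC -0.42, HIST1H2BC -0.41). The adjusted p of the genes named from these 5 lists lay between 0.0856 and 0.595 (edgeR).

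ND4L silencing was then set directly against the other treatments, without the control libraries. Against the mean of the other 10 treatments 4 genes differed (0.0197% of all), MT-ATP6 higher (0.00493%) and MT-ND4, MT-RNR2 and PSAT1 lower (0.0148%), and 2248 had an unadjusted p under 0.05. With a term for replicate number in place of batch there were 14, and without ND4L replicate 1, 2, 3 or 4 there were 0, 1, 4 and 2 by edgeR (1899 at an unadjusted p under 0.05 without replicate 1). MT-ND4 was lower by -0.25 on the log2 scale (SE 0.040, adjusted p = 0.00166, edgeR) and MT-ATP6 higher by 0.21 (SE 0.040, adjusted p = 0.0207). MT-RNR2 was lower by -0.24 (SE 0.048, adjusted p = 0.0226). PSAT1, an enzyme of serine synthesis, was lower by -0.18 (SE 0.035, adjusted p = 0.0226), at 160, 160, 153 and 139 CPM after ND4L silencing. TXNIP (-0.18) and ARRDC4 (-0.17) did not pass in this contrast, nor did CD63 (0.09), SEMA6B (0.21, adjusted p = 0.217, edgeR) or NDUFS6 (0.21). MT-ND4L itself was lower by -0.25 with a larger error (SE 0.085, adjusted p = 0.275).

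**Figure D5:**
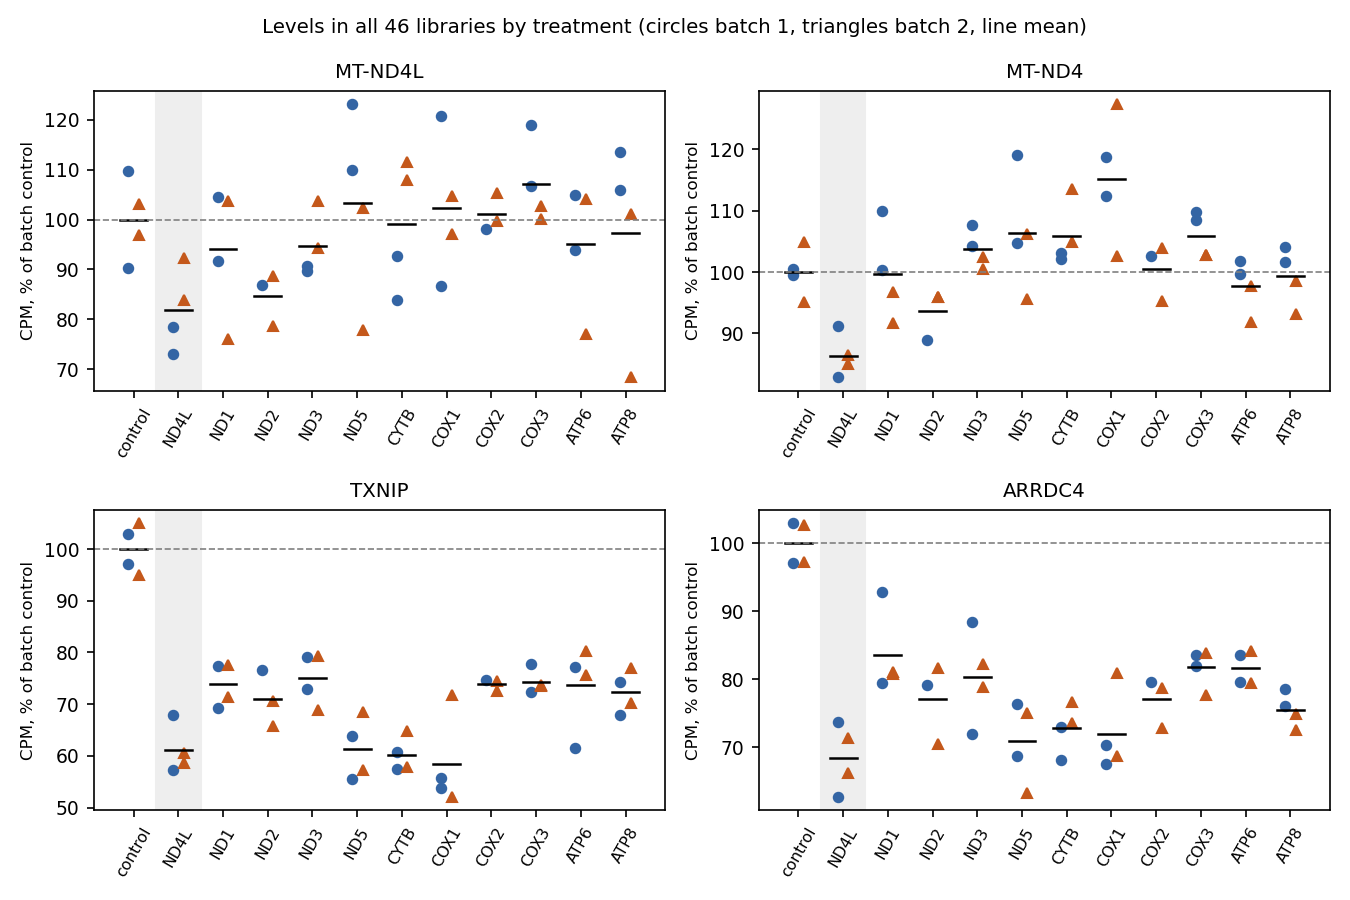
CPM of MT-ND4L, MT-ND4, TXNIP and ARRDC4 in all 46 libraries, as a percentage of the mean of the 2 controls of the same batch (y axis), by treatment (x axis; ND4L silencing shaded). Circles are batch 1, triangles batch 2 and bars means; the ND4L silencing mean is the lowest for MT-ND4L, MT-ND4 and ARRDC4, and for TXNIP the means of 3 other treatments are close to it.

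The level of MT-ND4 was lowest after ND4L silencing, at 86.4% ± 3.52 of the batch control (SD, n = 4). The other treatments ranged from 93.6% ± 4.07 after ND2 silencing (SD, n = 3) to 115% ± 10.5 after COX1 silencing (SD, n = 4). For MT-ND4L the order was less clear. ND4L silencing stood at 81.9% ± 8.23 (SD, n = 4), next to 84.7% ± 5.34 after ND2 silencing (SD, n = 3) and 94.0% ± 13.3 after ND1 silencing (SD, n = 4), neighbours whose spreads overlapped. TXNIP was at 61.1% ± 4.71 of the batch control, between 60.2% ± 3.42 after CYTB and 61.2% ± 5.92 after ND5 silencing, and was lowest after COX1 silencing, at 58.4% ± 9.08 (SD, n = 4 each). All 10 other treatments had means of at most 75.0%. ARRDC4 was at 68.5% ± 4.98, followed by 70.9% ± 6.02 after ND5 silencing and up to 83.6% ± 6.21 after ND1 silencing. MT-ATP6 was at 113% ± 9.87 after ND4L silencing, below the 115% ± 10.1 after COX1 silencing and next to 107% ± 4.06 after COX2 silencing (n = 3). It was lowest after COX3, ATP8 and ATP6 silencing, at 79.5%, 84.6% and 87.0% (SD of at most 3.98, n = 4 each). Taken singly, ND4L silencing differed in MT-ATP6 from these 3 treatments (adjusted p of 2.44e-08, 3.98e-06 and 6.41e-05, edgeR) and did not pass against any of the other 7. These percentages share the same 4 control libraries. NDUFS6 was at 146% ± 24.7 of its batch control after ND4L silencing, and at 112% to 133% in the other treatments.

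Against the 4 other chimeras for complex I subunits the counts varied. ND4L silencing differed from ND1 silencing in 45 genes (0.222%), 15 higher and 30 lower after ND4L silencing, from ND5 silencing in 34 (0.168%) and from ND2 silencing in 2 (0.00987%). From ND3 silencing it differed in 0 genes by edgeR, with 1775 at an unadjusted p under 0.05. Part of these differences lay in the targets of the other chimeras. MT-ND1 was at 1499 CPM after ND4L silencing and 2673 CPM after ND1 silencing (-0.83, SE 0.068, adjusted p = 9.21e-13, edgeR), and MT-ND2 was lower than after ND1 silencing by -0.50 and than after ND2 silencing by -1.06. Compared with ND5 silencing, MT-ND4 was lower by -0.30 (adjusted p = 0.00141), MT-RNR2 lower by -0.35 and MT-ND6 higher by 0.59 (adjusted p = 2.83e-07). ARRDC4 was lower than after ND1 silencing by -0.28 (adjusted p = 0.0372), and so was PSAT1 by -0.25 (adjusted p = 0.00756).

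Several properties of the libraries moved with these results. The 24 higher genes had a median transcript GC content of 59.1% and a median transcript length of 2010 bases, against 47.3% and 3949 bases over the 10411 genes with a mean of at least 10 CPM in the control. Over the 2087 genes richest in GC the median difference from the batch control was 0.06, 0.0038, 0.18 and 0.12 in ND4L replicates 1 to 4, and over the 2087 poorest -0.06, -0.01, -0.20 and -0.13. With a GC trend removed from each library 28 genes were called, 20 of them among the 30, and TXNIP, ARRDC4, CD63, SEMA6B, HAGH and NDUFS6 were among these 20. The 10 that were lost were ENO2, PSMA7, NHP2, NOP53, SIL1, TNNT1, REEP2, MAP7D1, NXT2 and AK9, at adjusted p of 0.0680 to 0.163. The first principal component of the 8 libraries (30.2% of the variance) separated the batches. On the second (14.2%) the ND4L silencing libraries had scores of 1.36 to 26.1 and the control libraries of -26.4 to 1.81. Across the 10436 genes with a mean of at least 10 CPM over the 8 libraries the differences of the batches correlated at r = 0.349, and across all genes at 0.0423, as a description of 2 sets of libraries. Fitted alone, batch 1 gave 3 called genes and batch 2 gave 169. All 30 genes kept their direction in both. They were chosen from these same libraries and lay on the same side of the batch control in all 4 ND4L silencing libraries. Their kept direction is therefore no separate support. The part of GC content, of length and of batch in these differences was not tested.

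Libraries of ND4L silencing held 22183123 to 26898994 counts and those of the control 19944731 to 22664329. Markers of HEK293 cells summed to 1202 to 1424 CPM after ND4L silencing and 1221 to 1403 CPM in the control, with 7 of 8 at 1 CPM or more. Markers of fibroblasts summed to at most 38.1 CPM and of endothelial cells, blood cells, cardiomyocytes and hepatocytes to at most 14.3 CPM, in ranges that overlapped between the groups. Unlike the CPM elsewhere, these marker values were scaled by the total counts of each library alone, without TMM.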

How the data were processed

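Libraries were made from polyadenylated RNA and read on a NovaSeq X Plus instrument, as paired-end reads per the study's methods and single-end reads per the series text. The authors deposited raw read counts per gene for 58735 genes in 46 libraries, without normalization. The aligner, the counter and the use of strand are not given in the sources used here. The submitters' processing notes name GRCh38.p12, R 4.3.0, DESeq2 1.40.2 and limma 3.56.2. Gene identifiers, starts and ends matched GENCODE 29.

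The counts were tested with edgeR 4.0.16 in R 4.3.3. Genes were kept by filterByExpr with a minimum count of 10 (20272 genes) and libraries scaled by TMM. Condition and batch were fitted over all 46 libraries, with 33 residual degrees of freedom, by glmQLFit and glmQLFTest, and p-values were corrected by Benjamini-Hochberg over all genes tested. Within-batch values are differences of mean log2 CPM with a prior count of 2. Exact permutation tests used SciPy 1.17.1. The scripts were tested on simulated data. The study's methods call the replicates biological, and the labels do not say whether they were separate cultures.

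Named were the 13 mitochondrial mRNAs, every called gene, the called members and the 2 smallest p of each list, genes called against the other 10 treatments or in all 8 fits that left out a library, and TMEM186, ZNF703 and SMIM26. A called gene and a list member that this rule also names are not reported here. The comparison, the lists and this rule were chosen with earlier results of these data known. Same-numbered libraries deviated together from their group means (r = 0.259, 0.651, 0.581 and 0.569 for numbers 1 to 4, over 10436 genes), and so did libraries of the same batch with different numbers (r = 0.294 to 0.573). With batch means removed the same-number values were 0.0886 in batch 1 and 0.301 in batch 2, so pairing by number was not told apart from batch in batch 1. The block on replicate number is given where it changed a call. Replicate pairs differed by more than sampling noise (chi-square per degree of freedom of at least 3.47). Alternatives were other tools (DESeq2 1.42.0), scalings, filters, libraries and trends.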

Additional observations from a re-analysis of the deposited data

Results flagged for a closer look

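Among 192 groups of 4 libraries, 6 held 1 library far from the other 3 by Dixon's test, which chance gives in about 1 of 20 groups. All 6 were ND4L silencing libraries. MT-CO2 was at 4114 CPM in replicate 1 and at 5073 to 5223 CPM in the others. RPS3 was at 1479 CPM in replicate 2 against 1441 to 1447 CPM, TMEM126B at 36.8 CPM in replicate 2 against 30.3 to 31.4 CPM, and UQCRFS1 at 304.1 CPM in replicate 2 against 269 to 273 CPM. MRPS26 was at 136 CPM in replicate 3 against 121 to 123 CPM, and HTRA2 at 54.0 CPM in replicate 1 against 48.9 to 49.3 CPM.

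In 4 genes the level after ND4L silencing differed from the mean of the other 10 treatments by the contrast of edgeR itself. The log2 difference was -0.25 for MT-ND4, 0.21 for MT-ATP6, -0.24 for MT-RNR2 and -0.18 for PSAT1.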

How the results depend on the processing

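The number of genes called against the control (30) moved with the settings. It was 2 with no batch term, 106 with the replicate block in place of batch, 297 with DESeq2 fitted to condition and batch (9826 genes without an adjusted p), 324 with DESeq2 on counts corrected for batch by limma (7861 without), 294 with no filter on low counts (47354 genes tested), 92 with a minimum count of 50, 249 from the 8 libraries alone, 3 from batch 1 alone, 169 from batch 2 alone, 6 with an absolute log2 fold change of at least 0.5 required as well, and 51 with a robust dispersion estimate, an alternative chosen after seeing the data. RLE size factors gave 29, TMM from nuclear genes 43, a gene-length trend removed 30 (27 of the same genes) and a GC trend removed 28. Leaving out 1 library gave 5 to 92. The 30 genes kept their direction in every one of these refits, which reuse libraries that chose these genes. ARRDC4 was called in all 22 refits and TXNIP in 21. MT-ND4 was called in 6 and MT-ND4L in 2 (no filter and the 8 libraries alone). Against the other 10 treatments the count of 4 became 0 with no batch term (edgeR, 1175 at an unadjusted p under 0.05), 14 with the replicate block and 88 with DESeq2 (14542 genes without an adjusted p), and 0 to 4 when 1 ND4L library was left out. Among the named genes the replicate block changed the call of MT-ND4, MT-TR, HTRA2, LONP1, PFKP and PRDX5, all of which it called, and of no other. The cause of these changes was not tested. The difference in the share of counts on mtDNA genes (-0.087 percentage points) was 0.0155 within batch 1 and ran from -0.234 to 0.0469 when 1 library was left out, and the difference in the log2 ratio of MT-ND4 to MT-ND4L (0.0785) was -0.0354 within batch 2.

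The 9 named genes below, near 0, none of them called, changed sign. SMIM26 was at -0.00347 with no batch term, -0.00324 with DESeq2, -0.00216 with DESeq2 on corrected counts, -0.00282 with RLE, -0.000735 with the minimum count of 50, -0.0780 in batch 1, -0.0653 with the length trend and -0.0492 with the GC trend removed. MT-CO3 was at -0.000383 with DESeq2, -0.000384 with RLE, -0.0244 in batch 2 and -0.0625 with the length trend removed, as were MT-CO2 at -0.00932, MT-CYB at -0.00763 and MT-RNR1 at -0.0121. In batch 1 MT-CO1 was at 0.00249, MT-ND2 at 0.0442 and MT-ND5 at 0.0468, with the GC trend removed MT-ND2 was at 0.0125 and MT-ND5 at 0.0200, and in batch 2 ZNF703 was at 0.0102. Leaving out 1 library gave -0.0523 to 0.00536 for MT-CO1, -0.0270 to 0.0314 for MT-CO3, -0.0701 to 0.0792 for MT-ND5, -0.0593 to 0.0136 for ZNF703 and -0.0379 to 0.0570 for SMIM26.

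With 4 libraries a group in 2 batches, an exact permutation test cannot give a p below 0.0286, or below 0.333 within a batch. Every comparison with the control rests on the same 4 control libraries, and a fold change of low genes such as MT-TV rests on few reads.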
